A study of Mus musculus and other sequences with 2 samples.

Results

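The miRNAs described here are the mouse sequences that were named late and carry a number of 1000 or higher, as they were represented on a TaqMan rodent miRNA array. Members were chosen by assay name alone, as assays of the form mmu-miR- with such a number and any suffix, leaving out minor-arm assays and 3 numbers. This gave 84 assays of the 750 miRNA assays on the array, and all 84 lay on card B of the 2 cards. They ran from miR-1186 to miR-2183, and no name occurred more than once, so that each value is the Ct of 1 well. The study compared 1 microdroplet of media conditioned by embryos with 1 blank microdroplet. For the conditioned sample, a pool of 25 CD1 embryos, from superovulated females (3 weeks old in the labels, with a range from that age in the methods) mated with CD1 males, conditioned an 8 μL droplet between 99 and 116 h after hCG (human chorionic gonadotropin, which induces ovulation). The labels call these embryos blastocysts and the methods describe them as morulae at the start. Blank media was the same medium, KSOM with 0.1% polyvinyl alcohol in place of albumin (named polyvinylacetate in the labels), kept for the same 17 h without embryos. Whole media was lysed without RNA extraction. With 1 sample per condition there was no replicate and no test of a difference between the media, and because the embryos were pooled, more releasing cells and more RNA per cell cannot be told apart.

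Mature miRNAs are short RNAs cut from a hairpin, and one arm of the hairpin, called 5p or 3p, is usually loaded into an Argonaute protein. The loaded strand finds its target messages mainly through the seed, the bases from position 2 to 8. Numbers were handed out in order of registration, so that high numbers mark sequences found late, often by deep sequencing, and many of these are scarce or restricted to few tissues. Some late entries proved to be pieces of transfer RNA or of other structural RNAs and not products of a hairpin. The sequences named miR-1937 are known as such tRNA pieces, as is miR-1274a, and miR-1839 is known to derive from a small Cajal body RNA, a guide for modification of spliceosomal RNAs.

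Of the 84 assay names, 41 were identical to a mature miRNA name in RefSeq (GRCm38.p6), and 14 of these 41 were detected in at least 1 of the media. Another 12 names give no arm where RefSeq holds an arm of that name. The sequences that the results below turn on are shown with the seed in capitals. The first set holds members with a Ct before 15 in both media, beside the family members with which they share a seed.

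miR-1961: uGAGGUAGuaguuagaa
let-7g-5p: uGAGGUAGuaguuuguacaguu
let-7i-5p: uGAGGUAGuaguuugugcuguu
let-7a-5p: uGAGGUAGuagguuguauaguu
miR-1928: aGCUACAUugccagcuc
miR-221-3p: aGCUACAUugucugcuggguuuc
miR-222-3p: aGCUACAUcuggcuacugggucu
miR-1951: gUAGUGGAgacugguguggcua

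The entry for miR-1961, at chr5:92788465-92788481 on the minus strand, is 17 bases long and lies within the span of Shroom3, a gene for an actin-binding protein of epithelial cells. It holds the seed GAGGUAG of the let-7 family, the best known regulators of developmental timing, and shares this seed with 10 other mature mouse names. Its first 13 bases are those of let-7g-5p and let-7i-5p, and its first 11 those of let-7a-5p. The entry for miR-1928, also of 17 bases, at chr1:74206562-74206578 on the minus strand, shares the seed GCUACAU with miR-221-3p and miR-222-3p, and its first 10 bases with miR-221-3p. miR-1951 lies at chr2:115638777-115638798 on the plus strand and shares its seed with no other mature name. The second set holds members seen in 1 medium only, or far apart between the media.

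miR-1896: cUCUCUGAuggugggugaggag
miR-1960: cCAGUGCUguuagaagagggcu
miR-1970: uGUGUCACuggggauaggcuuug
miR-1192: aAACAAACaaacagaccaaauu
miR-1938: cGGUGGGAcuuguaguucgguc
miR-1941-5p: aGGGAGAUgcugguacagaggcuu

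The first of these, miR-1896, lies at chr13:21445209-21445230 on the plus strand, within the span of Zscan26, which encodes a zinc finger protein. miR-1960 lies at chr5:30170751-30170772 on the plus strand, within Hadhb, a gene of mitochondrial fatty acid oxidation, and miR-1970 at chrX:135786174-135786196 on the minus strand, within Gprasp1. miR-1192 lies at chr19:23149450-23149471 on the plus strand, within Klf9, a gene for a Krüppel-like transcription factor, and its seed AACAAAC is part of an A-rich repeat that opens the sequence. miR-1938 lies at chr12:40222782-40222803 on the minus strand, within Ifrd1, and miR-1941-5p at chr15:101369364-101369387 on the plus strand, within Krt80, a keratin gene. The spans are those of the RefSeq gene table, which gives no strand.

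A Ct is the cycle at which the fluorescence of a well crosses its threshold, on an inverted log2 scale, so that lower values mean more template, and wells that never crossed it in 40 cycles were undetermined. A Ct below 35 was called detected, without the study's further filter on the height of the fluorescence signal. In conditioned media 29 of the 84 members were detected (34.5%), against 37.3% of all 750 miRNA assays. In blank media 25 were detected (29.8%), against 29.1% of all. Both media shared 20 members (23.8%, against 23.5% of all), 9 were detected in conditioned media only (10.7%, against 13.9%) and 5 in blank media only (5.95%, against 5.60%). The remaining 50 were detected in neither, and 49 of these were undetermined in both. Each of these shares lay near that of the whole array. Ct values ran from 4.70 to 34.4 in conditioned media, and from 4.38 to 39.3 in blank media. The median Ct of the detected members was 21.6 with embryos and 22.2 without, compared with 25.5 and 22.8 over all detected miRNA assays. Over the other detected miRNA assays of card B it was 23.2 with embryos and 21.2 without. The plot of Ct by miRNA gives each detected member in both media.

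**Figure D1:**
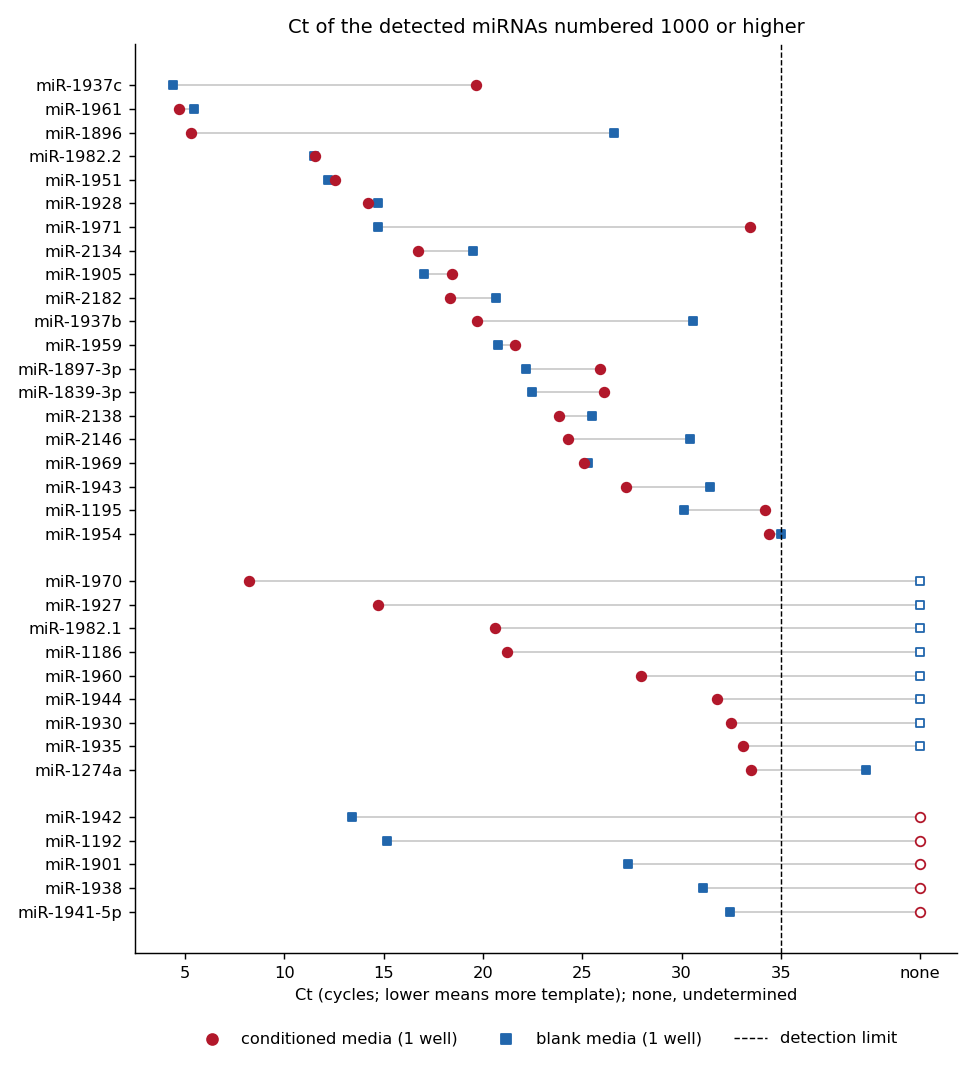
Ct in cycles of the 34 members with a Ct below 35 in at least 1 medium, 1 well per medium (circles, conditioned media; squares, blank media; open symbols, undetermined; dashed line, the limit of 35). The upper 20 were detected in both media, the middle 9 in conditioned media only and the lower 5 in blank media only.

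A Ct before 15 was found for 10 members (11.9%) in at least 1 medium, against 9.33% of all 750 miRNA assays. It was found for 7 members with embryos and 7 without (8.33% each), against 5.87% and 6.40% of all assays, and for 4 in both media (4.76%), against 2.93%. Of the 10, 4 were thus early in both, 3 had a Ct that was 15.3 to 21.3 cycles later in the other medium, and 3 were undetermined in the other medium. The 4 were miR-1961, miR-1982.2, miR-1951 and miR-1928, and their Ct differed between the media by 0.06 to 0.75 cycles. They were picked by their Ct in both media, so that this closeness is a description only. The Ct of miR-1961, which shares the let-7 seed, was 4.70 with embryos and 5.45 without. The assay miR-1982.2 had a Ct of 11.6 and 11.5, and miR-1951 a Ct of 12.5 and 12.2. For miR-1928 the Ct was 14.2 with embryos and 14.7 without. As a measure of error, the SD expected for a difference of single wells was 0.86 cycles, calculated from the 4 U6 wells of card B (SD 0.83 in conditioned media and 0.23 in blank media, n = 4 wells each). That SD measures wells of 1 assay, not cultures. Those U6 wells had a Ct from 18.99 to 20.8 in conditioned media and from 26.8 to 27.3 in blank media. The SD does not measure the error of wells with an earlier or later Ct. Whether a Ct before 15 reflects template was not tested.

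The assays of the let-7 family did not follow miR-1961. Of 9 mouse assays named let-7 or miR-98, all on card A, 3 were detected in conditioned media, against 37.3% of all 750 miRNA assays. Their Ct was 28.2 for let-7e, 31.5 for let-7c and 31.5 for let-7b. In blank media 0 of the 9 were detected, against 29.1% of all assays. The assays of let-7g and let-7i, whose first 13 bases miR-1961 shares, were undetermined in both media. The relatives of miR-1928 differed as well. miR-222 had a Ct of 18.9 with embryos and 13.4 without, and miR-221 was undetermined in conditioned media and had a Ct of 35.7 in blank media. Each assay has its own efficiency, and these values therefore do not rank amounts.

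Members that derive from structural RNA were represented by 4 assays of the list drawn up for them, namely miR-1937b and miR-1937c for tRNA and both arms of miR-1839 for the small Cajal body RNA. Of these, 3 were detected in both media, against 23.5% of all assays, and 1, miR-1839-5p, in neither. The assay of miR-1937b had a Ct of 19.7 with embryos and 30.6 without. For miR-1937c the Ct was 19.6 with embryos and 4.38 without. Within each assay the media differed, and the 2 assays ran in opposite directions. Between the 2 assays, the Ct lay 0.04 cycles apart in conditioned media and 26.2 cycles apart in blank media. The opposite directions thus rest on the blank wells, 1 per assay. Conditioned minus blank, the difference was -10.9 cycles for miR-1937b and 15.3 cycles for miR-1937c. Both exceeded the SD of U6 wells, and each rests on 1 well per medium.

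Of the Cajal body RNA arms, miR-1839-3p had a Ct of 26.1 with embryos and 22.5 without, 3.62 cycles later in conditioned media. RefSeq placed none of the 41 matched members in a tRNA, rRNA, snRNA, snoRNA or other structural RNA gene, and this included miR-1839-5p. Since miR-1839-5p is itself on the structural RNA list, this search cannot show that the other matched members lack such an origin. The names miR-1937b, miR-1937c and miR-1839-3p were not among those matched. A further tRNA piece, miR-1274a, which was added to the description after the values were seen, had a Ct of 33.5 with embryos and 39.3 without. It was therefore counted among the members detected in conditioned media only, although it amplified in both.

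The highest numbers, from miR-2134 to miR-2183, formed a block of 8 assays, of which 4 were detected in both media (against 23.5% of all assays) and 4 were undetermined in both. All 4 detected members were earlier in conditioned media, by a median of 2.55 cycles, and all 4 were later when taken relative to U6. Over the 176 assays detected in both media, 48.3% were earlier in conditioned media and the median difference was 0.05 cycles. With and without embryos, the Ct was 16.7 and 19.5 for miR-2134, and 18.4 and 20.7 for miR-2182. It was 23.8 and 25.5 for miR-2138, and 24.3 and 30.4 for miR-2146. The difference of -6.16 cycles for miR-2146 was the largest of the 4, and that of -1.66 cycles for miR-2138 the smallest. Each of the 4 was larger than the SD of U6 wells and smaller than the mean difference of U6 itself, given below. None of miR-2135, miR-2136, miR-2139 and miR-2183 had a Ct in either medium. The names of the 4 detected members were not among those matched in RefSeq, nor were miR-2135 and miR-2183, whereas miR-2136 and miR-2139 were.

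Among the other members detected in both media, miR-1896 and miR-1971 were the farthest apart. The Ct of miR-1896 was 5.30 with embryos and 26.6 without, a difference of -21.3 cycles. In miR-1971 the order was the reverse, with a Ct of 33.4 with embryos and 14.7 without, a difference of 18.7 cycles. With miR-1937b and miR-2146, miR-1896 made up the 3 members of 20 (15%) whose Ct in conditioned media came first by more than 5 cycles, against 10.8% of the 176 miRNA assays detected in both media. With miR-1937c, miR-1971 made up the 2 of 20 (10%) that were more than 5 cycles later, against 11.4%. In miR-1896, miR-1937c and miR-1971, 1 of the wells had a Ct before 15.

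**Figure D2:**
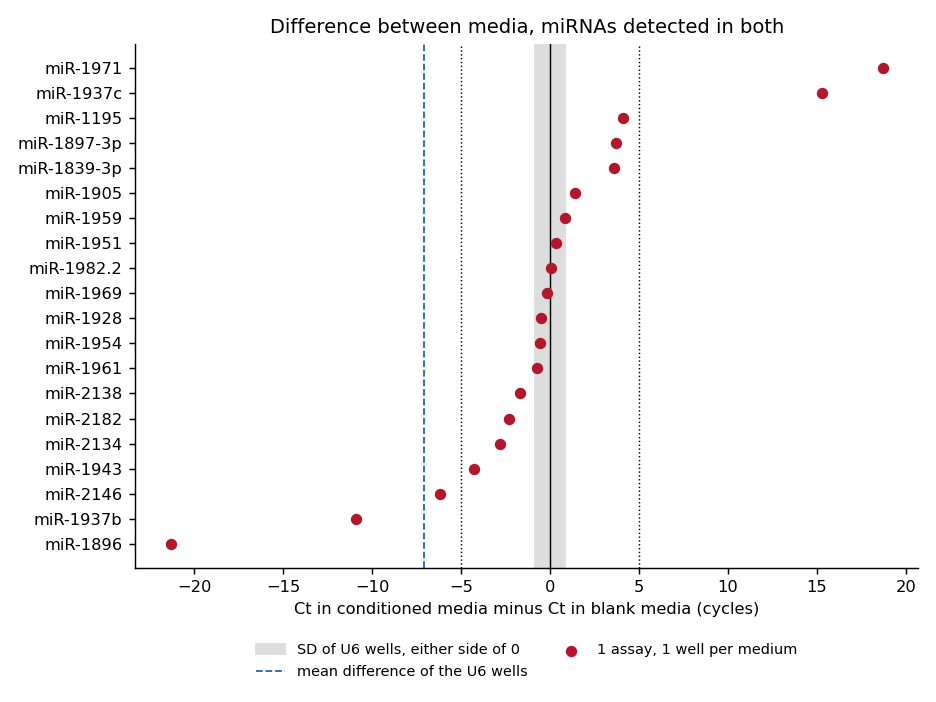
Ct in conditioned media minus Ct in blank media, in cycles, for the 20 members detected in both media, 1 well per medium (grey band, 0.86 cycles either side of 0, the SD from U6 wells; dotted lines, -5 and 5 cycles; dashed line, mean difference of -7.07 for U6). The differences run from -21.3 for miR-1896 to 18.7 for miR-1971, and 7 of the 20 lie within the grey band.

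The remaining members of this group differed less. With embryos miR-1943 had a Ct of 27.2, which was 4.25 cycles earlier than its 31.4 in blank media. Later with embryos were miR-1195, with a Ct of 34.2 and 30.1, and miR-1897-3p, with a Ct of 25.9 and 22.2. The sequence of miR-1897-3p lies within the span of Sox2ot, the long non-coding RNA that surrounds the pluripotency gene Sox2. For miR-1905, which lies within Mex3a, a gene for an RNA-binding protein, the Ct was 18.5 and 17.0, a difference of 1.43 cycles. These 4 differences were larger than the SD of U6 wells. That of miR-1959, with a Ct of 21.6 and 20.8, was not, nor were those of miR-1969, with 25.1 and 25.3, and miR-1954, with 34.4 and 34.98. miR-1954, which lies within Eng, the gene of the endothelial receptor endoglin, was the detected member closest to the limit of 35. Over the 20 members, 7 (35%) lay within the SD of U6 wells, 7 (35%) were earlier and 6 (30%) later in conditioned media by more than that SD. The same shares were 25.6%, 38.6% and 35.8% of all 176 miRNA assays detected in both media, and 30.6%, 30.6% and 38.7% of the 62 others of card B. The SD from card B was used for all 176, although the SD from the U6 wells of card A was 3.29 cycles. The median difference was -0.34 cycles, compared with 0.05 cycles over all 176 miRNA assays detected in both media and 0.39 cycles over the 62 others of card B.

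U6, the small nuclear RNA that the array carries as a control, was itself earlier in conditioned media. On card B the mean of its 4 wells was 19.96 with embryos and 27.0 without, a difference of -7.07 cycles, and the wells did not overlap between the media. On card A, which holds no member, the mean difference of U6 was -4.08 cycles, and the wells overlapped between the media. Relative to U6, 2 of the 20 members (10%) were earlier in conditioned media and 18 (90%) were later, against 3.66% and 96.3% of the 82 miRNA assays of card B detected in both. More than 5 cycles earlier on this basis was 1 member (5%), against 1.22% of the 82, and 14 members (70%) were more than 5 cycles later, against 78.0%. The 2 earlier members were miR-1896, with -14.2 cycles relative to U6, and miR-1937b, with -3.81 cycles. Set against U6, the median of the 20 members was 6.73 cycles later in conditioned media, compared with 7.46 cycles over the 62 other miRNA assays of card B.

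**Figure D3:**
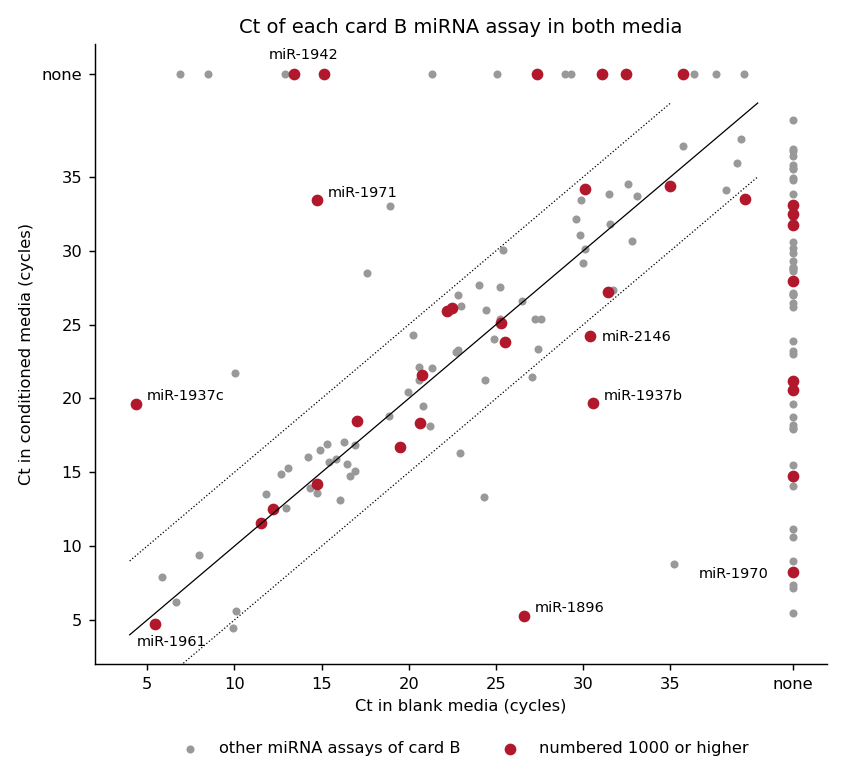
Ct in conditioned media against Ct in blank media, in cycles, for the miRNA assays of card B with a Ct in at least 1 medium (large points, the members; small points, other assays; none, undetermined; solid line, equal Ct; dotted lines, 5 cycles either side). Most members with a Ct in both media lie between the dotted lines, and miR-1896, miR-1937b, miR-2146, miR-1937c and miR-1971 lie outside them with both Ct values below 35.

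Detected in conditioned media only were 9 members, with a Ct from 8.23 to 33.5 and a median of 27.95. All but miR-1274a, thus 8 of the 9, had no Ct at all in blank media. In order of Ct, miR-1970 had 8.23, miR-1927 had 14.7, miR-1982.1 had 20.6 and miR-1186 had 21.2. Next came miR-1960, of the Hadhb locus, with a Ct of 27.95. The other 4 had a Ct of 30 or later, which was 31.8 for miR-1944, 32.5 for miR-1930, 33.1 for miR-1935 and 33.5 for miR-1274a. The group thus held early as well as late wells, and 2 of its 9 members had a Ct before 15.

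The 5 members detected in blank media only were all undetermined in conditioned media. Their Ct in blank media was 13.4 for miR-1942, 15.2 for miR-1192, 27.3 for miR-1901, 31.1 for miR-1938 and 32.4 for miR-1941-5p. Here too the values were spread from early to late. miR-1940 had a Ct of 35.7 in blank media, just beyond the limit, and was undetermined in conditioned media. Beside the 9 members detected in conditioned media only stood these 5 in blank media only, compared with 104 and 42 over the whole array.

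A 5p and a 3p assay were present for 5 hairpins. Of these, 0 had both arms detected in any medium, 3 had 1 arm detected and 2, miR-1894 and miR-1933, had neither. Among the other 39 mouse hairpins with such a pair of assays, both arms were detected for 3 (7.69%), 1 arm for 23 and neither for 13. The detected arms were miR-1839-3p and miR-1897-3p in both media, and miR-1941-5p in blank media only, and their partner arms miR-1839-5p, miR-1897-5p and miR-1941-3p were undetermined throughout. A related case was miR-1982, whose assays are named miR-1982.1 and miR-1982.2 without an arm. RefSeq lists both arms of this hairpin, at chr10:80828808-80828827 and chr10:80828848-80828870 on the plus strand, and the names do not say which of the arms each assay reads.

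miR-1982-5p: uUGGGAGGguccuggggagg
miR-1982-3p: uCUCACCCuauguucucccacag

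The Ct of miR-1982.2 was 11.6 with embryos and 11.5 without, whereas miR-1982.1 had one of 20.6 with embryos and none without.

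By number, detection in at least 1 medium was found for 4 of the 10 members from miR-1186 to miR-1306, for 3 of the 10 from miR-1839 to miR-1899, and for 2 of the 7 from miR-1900 to miR-1906. It was found for 21 of the 49 from miR-1927 to miR-1982, and for 4 of the 8 from miR-2134 to miR-2183, against 42.9% of all 750 assays. The 9 members detected in conditioned media only came from the blocks that begin with miR-1186 and miR-1927. Undetermined in both media were, among others, miR-1224, miR-1306 and miR-1906. miR-1224 is a mirtron that is spliced from an intron. miR-1306, whose name was not matched in RefSeq, is known to lie within Dgcr8, a gene of the microprocessor that cuts miRNA hairpins. RefSeq places miR-1906 within the imprinted non-coding RNA Meg3 and at a second site on the X chromosome.

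Detected and undetected members were also set side by side in sequence features that the choice of members did not use. Among the 41 matched members, mature length ran from 17 to 24 bases with a median of 22. The shortest, of 17 bases, were miR-1961, miR-1928 and miR-1952, of which the first and second were among the early wells in both media and the last was undetermined in both. The median GC content was 54.4% in the 14 detected members, from 27.3% to 68.2%, and 56.5% in the 27 others, from 40.9% to 68.2%. The lowest value, 27.3%, was that of miR-1192. A location within the span of a protein-coding gene or long non-coding RNA was found for 11 of the 14 detected members and for 22 of the 27 others. These are descriptions of a part of the members, since 20 of the 34 detected members had no matched sequence.

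The members were also set beside the other assays of card B and beside the mouse miRNAs from miR-680 to miR-721, an earlier series of late names, of which 27 lie on card B and are counted there too and 8 on card A. Of the 292 other miRNA assays of card B, 34.9% were detected in conditioned media and 24.3% in blank media. Of the 35 assays from miR-680 to miR-721, the shares were 51.4% and 40%. Members detected in both media made up 23.8%, compared with 21.2% on the rest of card B and 34.3% in the earlier series. A Ct before 15 was found in 8.33% of the members in each medium, in 7.53% (conditioned) and 6.16% (blank) of the other card B assays, and in 11.4% of the earlier series in each. Differences between the media, in either direction, had a median size of 2.55 cycles over the 20 members detected in both, 1.82 cycles over the 62 other assays of card B, 1.70 cycles over the 12 of the earlier series and 2.19 cycles over all 176. Across assays detected in both media, Spearman's rho between the Ct in conditioned and in blank media was 0.59 over the 20 members, 0.85 over the 62 others of card B and 0.50 over the 12 assays of the earlier series, compared with 0.72 over all 176, as a description of wells that share 1 sample per medium. No test was made of any of these differences.

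**Figure D4:**
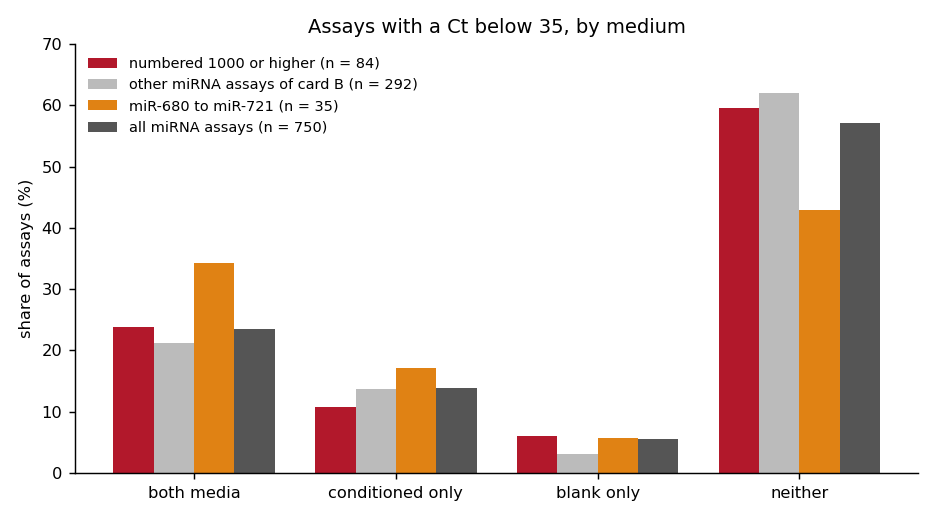
Share of miRNA assays, in percent, with a Ct below 35 in both media, in conditioned media only, in blank media only or in neither, for the 84 members, the 292 other assays of card B, the 35 assays from miR-680 to miR-721 and all 750. The bars of the members lie near those of card B and of the whole array, with 59.5% of members in neither medium.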

How the data were processed

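Conditioned and blank media, 1 sample each, were lysed, reverse transcribed, pre-amplified for 12 cycles and run on card A and card B. The authors deposited raw Ct values, in cycles and not normalized, 1 per well. How threshold and baseline were set is not stated in the labels or methods. The deposited table of fold changes holds the authors' own comparison and was not used. The study also filtered on the height of the fluorescence signal, which was not analysed here, so that detection was called from Ct only (below 35), undetermined wells were called not detected and 18 control wells were left out.

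Members were found by name, and differences were taken as conditioned minus blank media with limits of -5 and 5 cycles. With 1 sample per condition no test was run, and the number of arrays limits the precision. Named were the structural RNA list, members detected in 1 medium only, those more than 5 cycles apart, the 5 of lowest Ct in each medium and all others detected in both. Members and lists were chosen with earlier results of these data known. Sequences came from RefSeq (GRCm38.p6). The deposited values name no genome build. Counting was tested on simulated data for 750 assays, where 2 of 2 checks passed. Alternatives changed the Ct limit, early wells, the counting unit, the difference limit and the normalization. Python 3.11.15, pandas 2.3.3, numpy 2.4.6 and matplotlib 3.10.9 were used.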

Additional observations from a re-analysis of the deposited data

How the results depend on the processing

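Of 40 alternative values, 34 kept within a set limit of those reported. That limit was 1.5 times for a count and the SD of U6 wells for the median. Some of the 34 could not change, since no Ct of a member in conditioned media was later than 34.4. A count that stays the same can also hold other members. Not counting wells before Ct 15 lowered the members detected in both media from 20 to 13, and those later by more than 5 cycles from 2 to 0, since miR-1937c and miR-1971 each had such a well. The counts in conditioned media only and in blank media only stayed at 9 and 5, but with other members. miR-1970 and miR-1927 left the former group, and miR-1937c and miR-1971 joined it. miR-1942 left the latter group, and miR-1896 joined it. A limit of 3 cycles gave 5 members later in conditioned media. Relative to U6, 1 member was more than 5 cycles earlier and 14 were later, and the median difference turned from -0.34 to 6.73 cycles, which follows from the U6 difference of -7.07. Another 10 values, for card B alone and with minor arms counted, could not change, since every member lay on card B and none had a minor-arm name, and card A alone gave no value. No paired analysis was possible because each condition had 1 sample. A Ct in a single well gives no measure of how often it would recur.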
